A study of Mus musculus with 81 samples.

Results

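The genotype by diet interaction in dentate gyrus granule cells (DGCs) is the amount by which the Ts65Dn (Ts) minus 2N difference in expression differed between offspring of choline-supplemented dams (ChP) and offspring of dams on the choline-normal diet (ChN). It was estimated for each gene, on the log2 scale, as the Ts minus 2N log fold change (LFC, base 2) on ChP less the same LFC on ChN, in 1 model of the 28 DGC libraries among the 81 libraries of the series. A positive interaction means that a gene stood higher in Ts relative to 2N on ChP than on ChN, and a negative interaction means the reverse. The libraries were 6 of 2N ChN, 6 of Ts ChN, 7 of 2N ChP and 9 of Ts ChP mice, with 1 library from each of 28 mice. All groups were males at about 6 MO, born to Ts65Dn females that were mated with F1 males of C57Bl/6J Eicher and C3H/HeSnJ parents. Ts mice carry an extra minichromosome that holds a segment of mouse chromosome 16, with many orthologs of human chromosome 21 genes, and a segment of chromosome 17 that is not orthologous to it. The 2N mice have the usual 2 copies. Dams received 1.1 g/kg (ChN) or 5.0 g/kg (ChP) choline chloride, their pups shared that diet up to weaning, and every offspring ate the control diet from then on. The comparison therefore concerns a perinatal diet, months before the RNA was collected. DGCs were recognized by eye in Nissl-stained frozen sections and cut out by laser capture microdissection (LCM), which may also take fragments of cells and processes that touch them.

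Choline is built into phosphatidylcholine and sphingomyelin, is the precursor of acetylcholine, and after oxidation to betaine gives methyl groups to the cycle that makes S-adenosylmethionine, the methyl donor for DNA, histones and phospholipids. DGCs are the densely packed excitatory neurons that receive the entorhinal input to the hippocampus, send mossy fibers to CA3 PNs and are joined by new neurons throughout life. Maternal choline supplementation has been studied in Ts65Dn mice as a treatment that may alter how trisomy affects the brain, and the interaction is the quantity in these data that addresses that question gene by gene.

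Total expected counts ran from 696340 to 1469540 in 2N ChN, from 807076 to 1671295 in Ts ChN, from 358355 to 1160838 in 2N ChP and from 692841 to 1680698 in Ts ChP libraries. The 3 libraries under 600000 counts were all of 2N ChP mice (replicates 3, 5 and 6), so the fit was repeated without them. Those values are given beside each list whose number of calls changed or whose median, where given, turned in sign. They are also given beside each gene of the naming rule below that gained or lost its call. Genes chosen for their role or after their values were seen do not all carry such a value, among them Scarb2, Grin3a, Orai2, Slc43a2 and Rfx5. The interaction of the log10 total was 0.055 (exact permutation test over libraries, diets permuted within genotypes, two-sided, adjusted p = 0.885). For the share of counts from mitochondrially encoded genes it was 0.77 percentage points, adjusted p = 0.781, and for the number of genes detected it was 383, adjusted p = 0.885, by the same exact permutation test. The genotype labels could be checked on the triplicated genes, and the diet labels could not be checked in this way. The mean log2 CPM (counts relative to the total of the library, in the usual scaling) over the 65 chromosome 16 genes lay at 5.09 to 5.26 in 2N ChN and 5.64 to 5.75 in Ts ChN libraries, and at 4.93 to 5.21 in 2N ChP and 5.597 to 5.81 in Ts ChP libraries. No 2N library reached the level of any Ts library on either diet. The 10 DGC markers, led by Prox1, the transcription factor that specifies granule cells, summed to 3597 to 4513 CPM over all 28 libraries, and none of them was called for the interaction (median -0.049). Their median was -0.15 and 1 was called, Calb1, a calcium buffer of mature granule cells, at -0.28, unadjusted p = 0.0237, without the 3 shallow libraries. The first digits of the mouse numbers were spread unequally over the diets and, on ChN, over the genotypes. What they stand for is not given in the sources used here. In the order 2N ChN, Ts ChN, 2N ChP and Ts ChP, digits 17 stood in 4, 4, 0 and 1 libraries. Digits 16 stood in 0, 2, 2 and 2, digits 15 in 2, 0, 4 and 5, and digits 14 in 0, 0, 1 and 1.

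Across 16537 genes, no gene passed adjustment for a genotype difference in DGCs that depended on the diet. At the threshold of the study, an unadjusted p under 0.05, 656 genes were called (3.97% of those tested), 341 with a positive (2.06%) and 315 with a negative (1.9%) interaction. None had an adjusted p under 0.05 (edgeR's quasi-likelihood test, Benjamini-Hochberg), and all genes except Gm20458 and Tmem35b had an adjusted p above 0.99. In the same fit 69 genes passed an adjusted p of 0.05 for the Ts minus 2N difference on ChN and 70 for that on ChP, so the model detected differences between genotypes at these group sizes. The share of called genes was 5.98% of 1823 genes under 1 CPM, 3.97% of 5461 genes from 1 to 10 CPM and 3.57% of 9253 genes at or above 10 CPM. Each share lies near the 5% that a test makes at this threshold where there is no difference, so the calls described here are values of single genes and not established changes.

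**Figure D1:**
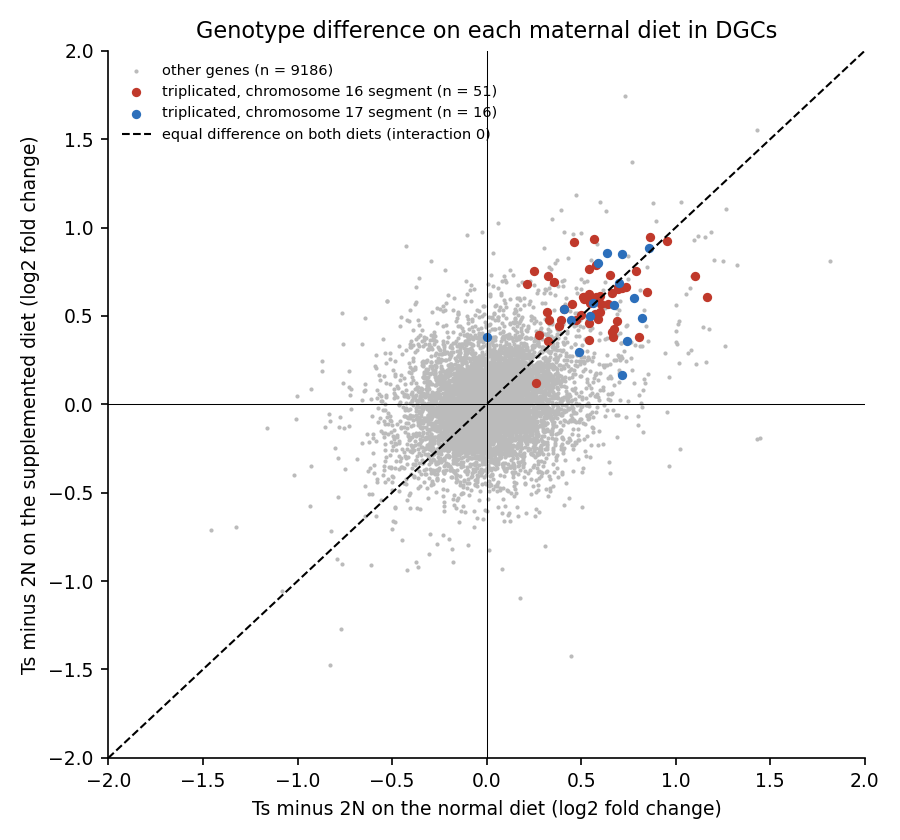
Ts minus 2N LFC in DGCs on ChN (x axis) and on ChP (y axis) for genes of at least 10 CPM, 1 point per gene (9253 genes, 4 of them beyond the axes), with genes of the triplicated segments in red (chromosome 16) and blue (chromosome 17) and the line of equal differences dashed. The triplicated genes lie along the dashed line at positive values on both diets, apart from Pde10a at 0 on ChN, and the vertical distance of a point from that line is its interaction.

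How large an interaction could have been missed is given by its interval. For genes of at least 10 CPM the median SE of the interaction was 0.23, against 0.16 for the genotype LFC on ChN and 0.16 on ChP, since a difference of differences carries the error of all 4 groups. The median 95% interval reached 0.45 to either side, which is a 1.36-fold change of the genotype ratio between the diets. For 7861 of these genes (85.0%) the interval lay inside a 2-fold change in either direction, and for 4351 (47.0%) inside a 1.5-fold change. The central 90% of the estimates ran from -0.43 to 0.41. Below 10 CPM the intervals widened steeply, and for most of those genes a 2-fold difference in the genotype effect was not detectable at this depth. Of the 656 called genes, 91.3% had a genotype LFC of opposite sign on the 2 diets, against 43.6% of all genes, and since a large interaction favours opposite signs nothing is read from this.

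**Figure D2:**
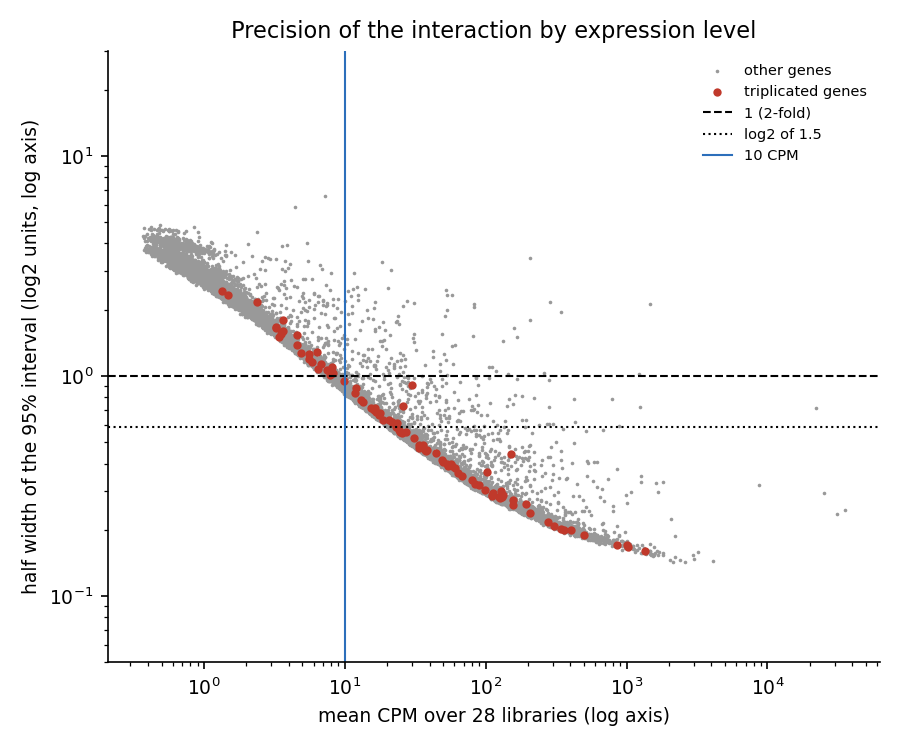
Reach of the 95% interval to either side of the interaction (log2 units, log axis) against mean CPM over the 28 DGC libraries (log axis), 1 point per gene tested, with triplicated genes in red, 10 CPM marked by the blue line, and a reach of log2 of 1.5 and of 1 marked by horizontal lines. Precision improves with expression, the points gather just under 1 at 10 CPM, and few genes below that level lie under the dashed line.

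The genes carried in triplicate were in excess in Ts DGCs on both diets, and few had a called interaction. The excess of the mean log2 CPM of the chromosome 16 list in Ts over 2N was 0.50 on ChN and 0.58 on ChP, and that of the chromosome 17 list 0.54 and 0.58. These lists are the genes that the study gives as expressed in DGCs, from libraries that are also used here. Of the 65 chromosome 16 genes, 38 had a positive and 27 a negative interaction, with a median of 0.032 against 0.00076 over all genes tested. Only Cryzl1 and Usp16 were called among them (3.08%), both positive. In that list 2 were called positive and 1 negative without the 3 shallow libraries. Of the 25 chromosome 17 genes, Pde10a was called with a positive and Tmem181a and Tiam2 with a negative interaction (12%, beside 3.97% of all genes), and the median was -0.015. The 95% interval held 0 for 85 of the 90 genes. An excess of 1.5-fold on ChN that was wholly absent on ChP would give an interaction of minus log2 of 1.5 (-0.58). For 48 of the 67 triplicated genes of at least 10 CPM the interval lay wholly above that value, and for 32 it lay within 1.5-fold in both directions. For the genes whose interval did not lie above it, an interaction of that size was not excluded at this precision. The median size of the interaction, regardless of sign, was 0.11 for these 67 genes and 0.14 for the 9186 other genes at that level.

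Of the triplicated genes best known in Down syndrome, App, the amyloid precursor protein gene, had a lowest, median and highest level of 651, 777 and 808 CPM in 2N ChN, 1207, 1230.4 and 1337 in Ts ChN, 687, 777 and 859.9 in 2N ChP and 1109, 1219 and 1338 in Ts ChP libraries. Each Ts library stood above each 2N library on both diets, and the interaction of App was -0.075 (SE 0.085, 95% interval -0.24 to 0.093). Son, an RNA-splicing factor, measured 716, 738 and 835 CPM in 2N ChN, 1188, 1323 and 1399 in Ts ChN, 619.9, 718 and 842 in 2N ChP and 1112, 1194 and 1317 in Ts ChP libraries, again without overlap between the genotypes, with an interaction of -0.037 (SE 0.087, 95% interval -0.21 to 0.13). Ttc3, a ubiquitin ligase, had an interaction of 0.012 (SE 0.081, 95% interval -0.15 to 0.17), and its genotype LFC was 0.60 on ChN and 0.61 on ChP. Dyrk1a, a protein kinase much studied in Down syndrome, measured 148, 176 and 212 CPM in 2N ChN, 215, 234 and 255 in Ts ChN, 133, 177 and 200.01 in 2N ChP and 205, 239.8 and 266 in Ts ChP libraries. Its interaction was 0.082 (SE 0.12, 95% interval -0.16 to 0.32). Sod1, the cytosolic superoxide dismutase, had -0.056 (SE 0.15, 95% interval -0.34 to 0.23), and Pcp4, a calmodulin-binding peptide of neurons, had -0.22 (SE 0.21, 95% interval -0.66 to 0.22), the widest of these intervals. For all 6 genes the interval held 0, and for all except Pcp4 it also stayed above minus log2 of 1.5.

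**Figure D3:**
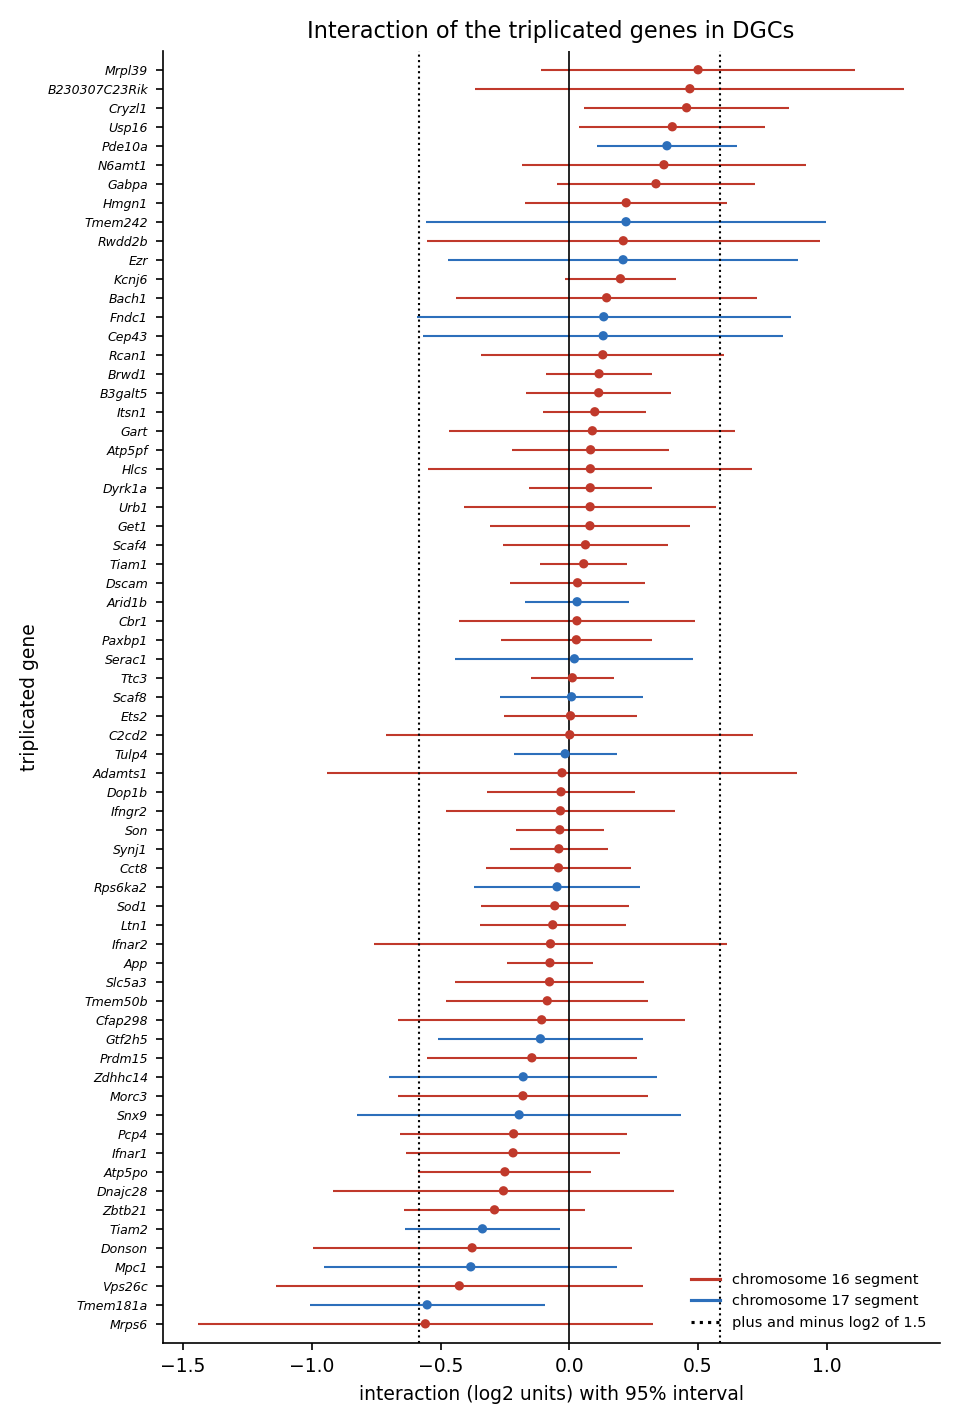
Interaction (log2 units, x axis) of each triplicated gene of at least 10 CPM in DGCs, sorted by size, with lines for the 95% interval in red for the chromosome 16 and blue for the chromosome 17 segment and dotted lines at plus and minus log2 of 1.5. The points lie on both sides of 0, 32 of the 67 intervals stay between the dotted lines, and the intervals of Cryzl1, Usp16, Pde10a, Tiam2 and Tmem181a lie to 1 side of 0.

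Cryzl1, a quinone oxidoreductase-like gene at chr16:91486165-91525863, minus strand (GRCm39, as are all positions given), had a lowest, median and highest level of 33.1, 47.4 and 50.6 CPM in 2N ChN, 52.7, 64.4 and 69.7 in Ts ChN, 21.8, 34.6 and 49.0 in 2N ChP and 55.8, 70.1 and 82.3 in Ts ChP libraries. The genotypes did not overlap on either diet, and the Ts minus 2N LFC was 0.46 on ChN and 0.92 on ChP. Its interaction of 0.46 (SE 0.20, 95% interval 0.058 to 0.85), unadjusted p = 0.0245, was 0.35, unadjusted p = 0.0808, without 2N ChP replicate 4 and 0.42, unadjusted p = 0.0516, without the 3 shallow libraries. Usp16 (chr16:87251591-87280416, plus strand), a deubiquitinase of histone H2A, had LFCs of 0.32 on ChN and 0.73 on ChP and an interaction of 0.40 (SE 0.18, 95% interval 0.039 to 0.76), unadjusted p = 0.0297. That value became 0.34, unadjusted p = 0.0719, without 2N ChN replicate 4 and 0.33, unadjusted p = 0.0777, without Ts ChN replicate 1. Pde10a (chr17:8744204-9205482, plus strand), a phosphodiesterase of cyclic nucleotides, lies in the chromosome 17 segment. It measured 94.7, 151 and 193 CPM in 2N ChN, 137, 149 and 169.8 in Ts ChN, 125, 133 and 153 in 2N ChP and 159.7, 168 and 210.1 in Ts ChP libraries. On ChN the genotypes overlapped, whereas on ChP each Ts library lay above each 2N library. The interaction of Pde10a was 0.38 (SE 0.14, 95% interval 0.11 to 0.65), unadjusted p = 0.00663, and it was called in 28 of 28 fits that leave out 1 library, with values from 0.29 to 0.49. Tmem181a (chr17:6307113-6358591, plus strand) and Tiam2 (chr17:3376808-3581619, plus strand), the latter an activator of the GTPase Rac, had LFCs that were smaller on ChP, at 0.72 on ChN and 0.17 on ChP for Tmem181a and 0.82 on ChN and 0.49 on ChP for Tiam2. Their interactions were -0.55 (-1.01 to -0.096), unadjusted p = 0.0177, and -0.34 (-0.64 to -0.036), unadjusted p = 0.0283. Without 2N ChP replicate 5 the value for Tmem181a was -0.44, unadjusted p = 0.0587. Cryzl1 lies within a longer readthrough gene of the same strand that is annotated as Atp5po and was not tested, and Usp16 overlaps Cct8, Tmem181a overlaps Dynlt1a and Tiam2 overlaps Tfb1m on the opposite strand. Tiam2 was called in 22 of 28 fits that leave out 1 library, with values from -0.42 to -0.26, and had -0.27, unadjusted p = 0.0973, without the 3 shallow libraries. None of the 5 passed adjustment (each adjusted p above 0.99, edgeR).

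The interaction was also read for genes that differed between the genotypes on average over both diets. The average Ts minus 2N difference had an adjusted p under 0.05 (edgeR) for 219 genes, 59 of them triplicated and 160 outside the segments. The average and the interaction were estimated from the same libraries. Of the 160 genes, the difference was larger on ChP in 75 and smaller in 85, and the median interaction was -0.032. The interval of the interaction stayed within 2-fold for 114 of them. The number called for the interaction was 8 (5%, beside 3.97% of all genes), and they are named here after their values were seen. Orai2, a subunit of store-operated calcium channels, was lower in Ts, with LFCs of -0.49 on ChN and -0.18 on ChP and an interaction of 0.31 (0.066 to 0.56). Slc43a2, a transporter of large neutral amino acids, had -0.12 on ChN and -0.58 on ChP and an interaction of -0.45 (-0.82 to -0.085). Rfx5, a regulator of MHC class II genes, had LFCs of -0.93 on ChN and -0.35 on ChP and an interaction of 0.58 (0.024 to 1.13). Sox4, a transcription factor of immature neurons, had -1.02 on ChN and -0.40 on ChP, with an interaction of 0.62 (0.020 to 1.22). Pcdhga2, a clustered protocadherin, had -1.33 on ChN and -0.70 on ChP, with an interaction of 0.63 (0.019 to 1.24), and was called in 15 of the 28 fits that leave out 1 library. The others were the lncRNA Gm34567, with an interaction of 0.42 (0.069 to 0.78), the snoRNA Snora26 at a mean of 1.55 CPM, and a gene known by its identifier alone. Of the 5 genes with the smallest p for the average difference outside the segments, Pcdhga2 alone was called for the interaction. Cacna1g, a T-type calcium channel, was lower in Ts on both diets at -1.08 on ChN and -1.05 on ChP, with an interaction of 0.028 (-0.64 to 0.70). Cplx1, which regulates vesicle fusion, was higher in Ts at 0.51 on ChN and 0.44 on ChP, with -0.073 (-0.37 to 0.23), and Nrip3 likewise at 0.67 on ChN and 0.56 on ChP, with -0.11 (-0.49 to 0.27). The fifth, the transcription factor gene Pou3f1, had a mean of 3.60 CPM and an interaction of 1.74 (-2.14 to 5.62).

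Among genes of at least 10 CPM with an established symbol, the 12 with a positive interaction of smallest p were Tmem106b, Rhobtb3, Fam107a, Il1rap, Gsg1l, Ddr1, Rab28, Dclre1c, Mrpl30, Vcf1, Adam1a and Tmem74. In all 12 the Ts minus 2N LFC was negative on ChN and positive on ChP, a pattern that the choice of large interactions favours, and all 12 were called in each of the 28 fits that leave out 1 library. Tmem106b (chr6:13069748-13089285, plus strand) encodes a membrane protein of lysosomes. Its lowest, median and highest levels were 203, 211 and 247 CPM in 2N ChN, 159, 189.9 and 215 in Ts ChN, 166, 181 and 216 in 2N ChP and 190.3, 216 and 239 in Ts ChP libraries. Ts ChN libraries lay mostly below 2N ChN libraries and Ts ChP libraries mostly above 2N ChP libraries, with overlap on both diets. The interaction of Tmem106b was 0.43 (SE 0.12, 95% interval 0.19 to 0.66), unadjusted p = 0.000426. Rhobtb3 (chr13:76017652-76092199, minus strand), an atypical GTPase-related protein of the Golgi and endosomes, measured 11.5, 16.1 and 22.3 CPM in 2N ChN, 4.79, 12.4 and 19.5 in Ts ChN, 4.15, 8.66 and 13.2 in 2N ChP and 8.41, 14.3 and 25.6 in Ts ChP libraries. The 2N ChP libraries were the low group, and the interaction of Rhobtb3 was 1.33 (SE 0.39, 95% interval 0.55 to 2.10), unadjusted p = 0.000745. Fam107a (chr14:14151750-14173507, plus strand), an actin-binding protein induced by stress hormones, measured 19.6, 34.4 and 43.9 CPM in 2N ChN, 20.4, 25.0 and 31.6 in Ts ChN, 16.1, 23.8 and 41.4 in 2N ChP and 31.3, 37.6 and 48.4 in Ts ChP libraries. Its groups overlapped on both diets, and its interaction was 0.76 (SE 0.25, 95% interval 0.25 to 1.26). Il1rap (chr16:26400350-26548880, plus strand), the accessory chain of the interleukin 1 receptor, lies on chromosome 16 outside the triplicated list and measured 250.3, 302 and 309 CPM in 2N ChN, 203, 259 and 291 in Ts ChN, 235, 246 and 293 in 2N ChP and 240.4, 261 and 343 in Ts ChP libraries, with an interaction of 0.33 (SE 0.12, 95% interval 0.10 to 0.56). The genotype LFC of Il1rap was -0.21 on ChN and 0.12 on ChP, with overlapping groups.

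Gsg1l, an auxiliary subunit of AMPA receptors, measured 66.0, 79.8 and 94.3 CPM in 2N ChN, 56.3, 68.8 and 96.8 in Ts ChN, 46.2, 62.3 and 80.3 in 2N ChP and 67.8, 80.5 and 84.6 in Ts ChP libraries. The 2N ChP libraries reached the lowest levels, and the interaction of Gsg1l was 0.49 (0.15 to 0.83). Ddr1, a receptor tyrosine kinase for collagen, had 0.70 (0.21 to 1.20), and Rab28, a small GTPase, had 0.58 (0.17 to 0.99). Dclre1c, the Artemis nuclease of DNA end joining, measured 15.4, 22.2 and 24.1 CPM in 2N ChN, 11.1, 14.6 and 19.2 in Ts ChN, 7.14, 10.7 and 28.5 in 2N ChP and 12.9, 19.1 and 25.8 in Ts ChP libraries, with an interaction of 0.95 (0.27 to 1.62). Mrpl30, of the mitochondrial ribosome, had 0.88 (0.25 to 1.51) and Vcf1, a cofactor of the ATPase VCP, 0.67 (0.19 to 1.15). Adam1a, a metalloprotease-like gene known from the testis, had 0.86 (0.24 to 1.48), and Tmem74, a protein of lysosomes and autophagosomes, 0.65 (0.18 to 1.11). Several of these loci overlap other genes, among them Dclre1c with Suv39h2 and Vcf1 with Cog1 on the opposite strand and Rhobtb3 with Gm15528, Gsg1l with Gm44874 and Adam1a with Gm42878 on the same strand. The authors' strand setting for counting is not given in the sources used here, so the counts of these genes may include reads of their neighbours.

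**Figure D4:**
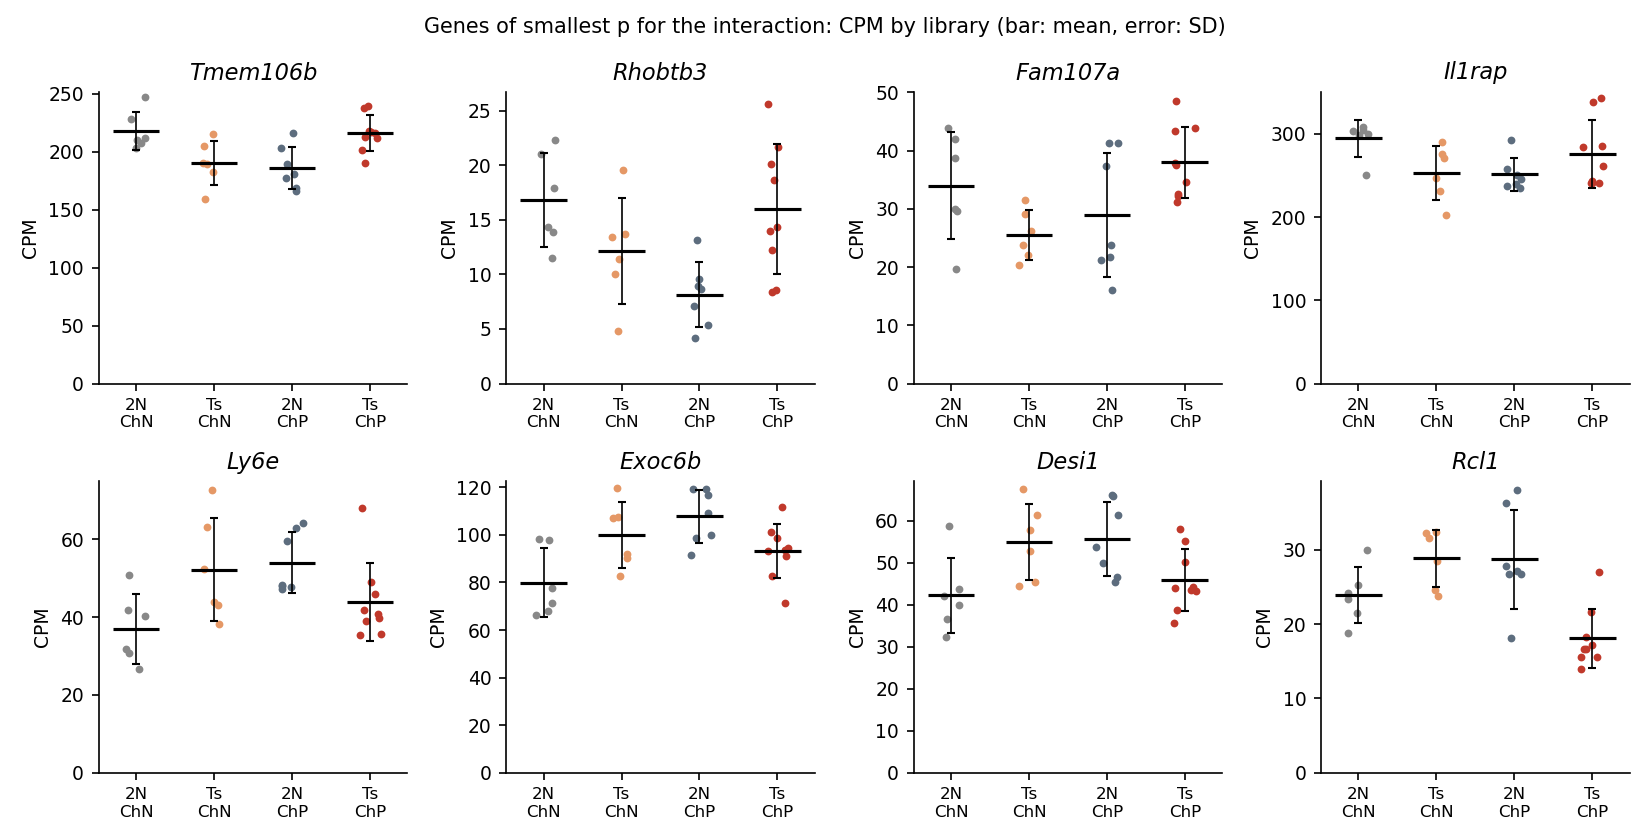
CPM (y axis) of the 4 genes with a positive (upper row) and the 4 with a negative interaction (lower row) of smallest p among genes of at least 10 CPM, 1 point per DGC library in each of the 4 groups of genotype and diet, with the mean as a bar and the SD as the error. In the upper row Ts lies below 2N on ChN and above it on ChP, in the lower row the order is the reverse, and the genotypes overlap on both diets in every panel.

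The 12 genes with a negative interaction of smallest p were Ly6e, Exoc6b, Desi1, Rcl1, Kcng2, Cables1, Nwd2, Gfra2, Hcn2, Gss, Ptov1 and Zc4h2, again all called in each of the 28 fits that leave out 1 library. In all 12 the LFC was positive on ChN and negative on ChP. Ly6e (chr15:74826860-74847454, plus strand), a lipid-anchored cell surface protein, measured 26.6, 36.0 and 50.9 CPM in 2N ChN, 38.2, 48.1 and 72.6 in Ts ChN, 47.1, 48.2 and 64.2 in 2N ChP and 35.5, 40.9 and 68.1 in Ts ChP libraries. Ts ChN and 2N ChP had the higher medians, with overlap on both diets, and the interaction of Ly6e was -0.79 (SE 0.22, 95% interval -1.22 to -0.37), unadjusted p = 0.000315. Exoc6b (chr6:84591426-85046522, minus strand), a subunit of the exocyst that tethers secretory vesicles, measured 66.1, 74.5 and 98.5 CPM in 2N ChN, 82.7, 99.4 and 119.8 in Ts ChN, 91.5, 109 and 119 in 2N ChP and 71.4, 93.5 and 112 in Ts ChP libraries. Its interaction was -0.52 (SE 0.15, 95% interval -0.83 to -0.22), unadjusted p = 0.000879, with overlapping groups. Desi1 (chr15:81876716-81918063, minus strand), a peptidase that removes SUMO, measured 32.3, 41.0 and 58.6 CPM in 2N ChN, 44.4, 55.2 and 67.6 in Ts ChN, 45.4, 53.9 and 66.0 in 2N ChP and 35.6, 43.9 and 58.1 in Ts ChP libraries, with an interaction of -0.67 (SE 0.20, 95% interval -1.07 to -0.27). Rcl1 (chr19:29078762-29154323, plus strand), needed for making the small ribosomal subunit, measured 18.8, 23.8 and 30 CPM in 2N ChN, 23.8, 30.02 and 32.4 in Ts ChN, 18.1, 27.2 and 38.0 in 2N ChP and 14.0, 16.7 and 27.0 in Ts ChP libraries. Most Ts ChP libraries lay below the other groups, and the interaction of Rcl1 was -0.89 (SE 0.27, 95% interval -1.42 to -0.35).

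Kcng2, a silent subunit of voltage-gated potassium channels, measured 31.4, 39.8 and 57.5 CPM in 2N ChN, 38.9, 45.4 and 53.5 in Ts ChN, 33.3, 58.5 and 66.4 in 2N ChP and 25.5, 39.7 and 42.3 in Ts ChP libraries. On ChP the highest Ts library lay below the median of 2N, although 1 2N library was low, and the interaction was -0.66 (-1.08 to -0.25). Hcn2, the hyperpolarization-activated channel, measured 21.0, 30.2 and 39.9 CPM in 2N ChN, 33.1, 39.5 and 50.3 in Ts ChN, 39.3, 45.8 and 51.9 in 2N ChP and 24.7, 38.0 and 50.5 in Ts ChP libraries. Its interaction of -0.65 (-1.09 to -0.20) goes with LFCs of 0.39 on ChN and -0.26 on ChP. Gfra2, the receptor for neurturin, had -0.61 (-1.01 to -0.20), and Cables1, a cyclin-dependent kinase adaptor, -0.98 (-1.60 to -0.35). Gss, the enzyme that completes glutathione, measured 8.57, 20.4 and 23.1 CPM in 2N ChN, 18.9, 20.9 and 31.2 in Ts ChN, 25.0, 27.7 and 54.7 in 2N ChP and 12.9, 21.0 and 28.7 in Ts ChP libraries. On ChP its 2N libraries ran higher with partial overlap, and the interaction of Gss was -0.85 (-1.45 to -0.26). The same uncertainty holds for Rcl1 with Gm5518, Kcng2 with Gm37015 and Cables1 with Gm49968 on the same strand, and for Desi1 with Xrcc6 and Gss with Acss2 on opposite strands. Nwd2, Ptov1 and Zc4h2 had -0.82 (-1.34 to -0.30), -0.41 (-0.70 to -0.12) and -0.96 (-1.65 to -0.28). Each of the 24 genes of both directions had an adjusted p above 0.99 (edgeR), and all 24 were called under each other setting tried except the thinning of every library to the smallest total, under which 12 of the 24 were called.

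The smallest p in the whole comparison belonged to Gm20458, an annotated transcript at chr2:164302887-164332680, plus strand that overlaps Dbndd2 and Sys1 on the same strand, so its counts depend on how reads were divided between these genes. It was at 0 in all 6 2N ChN libraries, at 0, 7.87 and 13.4 CPM (lowest, median and highest) in Ts ChN, at 0, 7.90 and 35.7 in 2N ChP and at 0, 2.56 and 5.56 in Ts ChP libraries. The adjusted p was 0.704 (edgeR, unadjusted p = 4.26e-05), and no fold is given because 1 group is at 0. Its adjusted p fell under 0.05 under 5 settings, at 3.97e-12 without a filter on low counts, 0.00140 without robust estimation, 0.00167 by DESeq2, 0.0180 without the 3 shallow libraries and 0.00748 after thinning, and so it did without Ts ChN replicate 4, at 0.00194. By limma-voom its adjusted p was 0.9998. Tmem35b, which overlaps Zmym6 on the same strand, had the next adjusted p, 0.898 (edgeR). It was at 0 in all 9 Ts ChP libraries and reached 2.31 CPM in 2N ChN, 7.52 in Ts ChN and 7.14 in 2N ChP, groups that also held libraries at 0. At a mean of 1.18 CPM a library has about 1 read of this gene. Both genes were chosen after their values were seen.

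Genes of choline handling showed no called interaction. Of 46 listed genes of choline transport and phosphatidylcholine synthesis 36 were measured and 0 called, with a median of 0.036, and for 22 of them the interval lay within 2-fold. The plasma membrane transporter Slc44a1 measured 57.2, 63.9 and 66.8 CPM in 2N ChN, 52.6, 64.4 and 75.9 in Ts ChN, 45.4, 55.3 and 74.6 in 2N ChP and 55.8, 60.1 and 77.8 in Ts ChP libraries, and its interaction was 0.062 (-0.29 to 0.42). Its relative Slc44a2, of mitochondria and the cell surface, had 0.50 (-0.12 to 1.12). Chka, the choline kinase that starts the pathway to phosphatidylcholine, measured 74.3, 80.5 and 105 CPM in 2N ChN, 62.6, 90.9 and 101 in Ts ChN, 66.7, 82.1 and 102 in 2N ChP and 57.8, 88.7 and 103 in Ts ChP libraries. Its 4 medians lay close together and its interaction was -0.045 (-0.37 to 0.28). Pcyt1a, the rate-limiting enzyme of that pathway, had 0.35 (-0.21 to 0.92), and Sgms1, a sphingomyelin synthase and the member of smallest p, had 0.47 (-0.059 to 1.003), unadjusted p = 0.0798. Pemt, which makes phosphatidylcholine by methylation, was at 0 in 18 of the 28 libraries, so an interaction was not detectable at this depth.

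Of 34 measured genes of one-carbon and S-adenosylmethionine metabolism, 2 were called positive and 2 negative (11.8%, beside 3.97% of all genes), and the list median was 0.053. In that list 1 was called in each direction and the median was -0.049 without the 3 shallow libraries. Gldc, the decarboxylase of the glycine cleavage system, measured 3.46, 8.49 and 14.7 CPM in 2N ChN, 2.40, 4.43 and 7.68 in Ts ChN, 1.06, 5.35 and 8.01 in 2N ChP and 4.29, 7.78 and 10.4 in Ts ChP libraries. It had an interaction of 1.55 (SE 0.56, 95% interval 0.44 to 2.66), unadjusted p = 0.00512. Gcsh, the lipoyl carrier of the same enzyme complex, had the opposite sign at -0.997 (SE 0.46, 95% interval -1.91 to -0.083), unadjusted p = 0.0308, and was called in 23 of 28 fits that leave out 1 library, with values from -1.21 to -0.74. Mthfd2l, a mitochondrial folate enzyme, had 1.11 (-0.0031 to 2.21), unadjusted p = 0.0446, and Srm, spermidine synthase, -0.62 (-1.22 to -0.031), unadjusted p = 0.0380. Mthfd2l was called in 16 of 28 fits that leave out 1 library, with values from 0.90 to 1.37, and Srm in 19. Without the 3 shallow libraries Gcsh had -0.89, unadjusted p = 0.0735, Mthfd2l 0.95, unadjusted p = 0.0898, and Srm -0.62, unadjusted p = 0.0533. Genes named from here on for their role alone, after their values were seen, are given with the interaction and its interval. The methionine synthase Mtr had 0.33 (-0.10 to 0.75) and Mat2a, which makes S-adenosylmethionine, 0.026 (-0.25 to 0.30). Chdh, which oxidizes choline to betaine, was low at a mean of 1.95 CPM and had an interval of -2.17 to 1.61. Of 19 genes that write, erase or read DNA methylation 0 were called, with a median of 0.038. Tet2, a methylcytosine oxidase, had 0.21 (-0.056 to 0.47), and the methyltransferases Dnmt1 and Dnmt3a 0.16 (-0.21 to 0.53) and -0.00038 (-0.29 to 0.29). Of 7 measured cholinergic receptors 0 were called. Chrm1, the main muscarinic receptor of these neurons, had 0.027 (-0.18 to 0.24), Chrna7, the nicotinic alpha 7 subunit, 0.34 (-0.13 to 0.80), and Chrnb2 -0.041 (-0.42 to 0.34).

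Among receptors and channels the calls were few and of both signs. Of 31 genes of ionotropic glutamate receptors and their partners, Gsg1l was called positive and the AMPA receptor auxiliary subunit Cacng3 and the NMDA receptor subunit Grin3a negative (9.68%, beside 3.97% of all genes), with a list median of 0.072. Without the 3 shallow libraries 1 was called in each direction, so at least 1 of Cacng3 and Grin3a lost its call, and the median was 0.0066. Cacng3 measured 41.6, 49.98 and 56.5 CPM in 2N ChN, 57.1, 66.8 and 83.2 in Ts ChN, 21.4, 62.3 and 78.5 in 2N ChP and 46.1, 56.7 and 81.6 in Ts ChP libraries, and its interaction was -0.46 (-0.85 to -0.069), with -0.39, unadjusted p = 0.0539, without Ts ChN replicate 4. Grin3a had -0.67 (-1.31 to -0.037). The pore-forming subunits were bounded more tightly, at 0.073 (-0.087 to 0.23) for Gria1, 0.14 (-0.023 to 0.31) for Gria2, -0.11 (-0.29 to 0.073) for Grin1 and 0.13 (-0.031 to 0.30) for Grin2a. Of 10 metabotropic glutamate receptors 0 were called (median -0.076). Of 23 genes of GABA receptors and their scaffolds and effectors 0 were called, and the median was 0.15. Members of smallest p were Kcnj6, a potassium channel coupled to GABAB receptors that is itself triplicated, at 0.20 (-0.018 to 0.42), and the subunit Gabrb1 at 0.19 (-0.027 to 0.40). Kcnj6 was called, at 0.26, unadjusted p = 0.0275, without the 3 shallow libraries. Of 34 voltage-gated potassium channel genes Kcng2 and Kcnh3 were called, both negative (5.88%, beside 1.9% of all genes called negative). Kcnh3 had -0.47 (-0.80 to -0.14) and, without the 3 shallow libraries, -0.32, unadjusted p = 0.0634. Of 25 voltage-gated calcium and sodium channel genes 0 were called (median 0.022), and 20 of their intervals stayed within 1.5-fold. Their median was -0.037 without the 3 shallow libraries.

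For vesicle release, 1 of 56 SNARE and release genes was called (1.79%, beside 3.97% of all genes). This was the syntaxin Stx4a at 0.75 (0.049 to 1.45), called in 20 of 28 fits that leave out 1 library, with values from 0.57 to 0.91. Of the 16 protein kinase A genes 0 were called, and the regulatory subunit Prkar1b had -0.25 (-0.50 to 0.0021), unadjusted p = 0.0516. Prkar1b was called, at -0.31, unadjusted p = 0.0161, without the 3 shallow libraries. Of 12 measured neurotrophin genes and receptors 1 was called, Gfra2 (8.33%, beside 3.97% of all genes). Bdnf measured 50.3, 76.1 and 92.4 CPM in 2N ChN, 54.6, 90.1 and 105 in Ts ChN, 60.7, 74.9 and 98.8 in 2N ChP and 57.6, 74.1 and 89.6 in Ts ChP libraries, with an interaction of -0.15 (-0.51 to 0.20). Its receptor Ntrk2 had 0.00076 (-0.22 to 0.22) and the neurotrophin 3 receptor Ntrk3 0.14 (-0.037 to 0.31). Of 26 immediate early genes, which report recent neuronal activity, 1 was called (3.85%). This was the phosphatase gene Dusp6, at -2.31 (SE 0.90, 95% interval -4.10 to -0.52), and its highest level in any group was 10.7 CPM. The list median was -0.071, and Nr4a2 had -0.73 (-1.52 to 0.051). Of 21 genes of immature granule cells and neurogenesis, Sox4 and the low-level Igfbpl1 were called, both positive (9.52%, beside 2.06% of all genes called positive), while the median was -0.030. Of the 21 genes 1 was called without the 3 shallow libraries. Sox4 measured 26.2, 33.0 and 44.6 CPM in 2N ChN, 12.5, 16.6 and 21.3 in Ts ChN, 11.9, 25.0 and 38.5 in 2N ChP and 10.7, 16.1 and 29.98 in Ts ChP libraries. Ts ChN libraries did not reach any 2N ChN library, while the genotypes overlapped on ChP, and the interaction of Sox4 was 0.62 (SE 0.30, 95% interval 0.020 to 1.22), unadjusted p = 0.0409. It was called in 17 of 28 fits that leave out 1 library, with values from 0.49 to 0.79, and had 0.50, unadjusted p = 0.111, without the 3 shallow libraries. Igfbpl1, an early marker of newborn granule neurons, was called neither without Ts ChP replicate 3 (2.01, unadjusted p = 0.0726) nor without Ts ChN replicate 1 (2.14, unadjusted p = 0.0507), and was at 0 in 9 of 28 libraries.

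The larger families of basic cell function had medians close to 0. Of 81 nuclear-encoded OXPHOS genes 2 were called positive and 2 negative (4.94%, beside 3.97% of all genes), with a median of -0.015. Without the 3 shallow libraries 1 was called positive and 2 negative. Atp5mg, a subunit of the ATP synthase, had 0.78 (0.18 to 1.38) and Ndufs3, of complex I, -0.61 (-1.11 to -0.11), which was -0.47, unadjusted p = 0.0725, without Ts ChN replicate 4. All 7 measured mitochondrially encoded OXPHOS genes had a positive value without being called (median 0.21), and mt-Co1, of cytochrome oxidase, had 0.21 (-0.016 to 0.43). These 7 genes share the mitochondrial genome and are not independent, and the mitochondrial share of counts given above consists mostly of the ribosomal RNAs mt-Rnr1 and mt-Rnr2, at means of 25445 and 35405 CPM. Of 85 cytosolic ribosomal protein genes 1 was called in each direction (2.35%, median -0.055), and reads of this family can be shared with pseudogenes. Of 79 mitochondrial ribosomal protein genes 4 were called positive and 2 negative (7.59%, beside 3.97% of all genes, with a median of 0.093). In that list 1 was called positive and 2 negative without the 3 shallow libraries. Of 43 heat shock and unfolded protein response genes only Xbp1, the transcription factor of that response, was called (2.33%). Its interaction was -0.40 (-0.78 to -0.014), and it was called in 13 of 28 fits that leave out 1 library, with values from -0.51 to -0.29. Of 35 genes of cholesterol synthesis and transport 0 were called (median 0.038). In that list 1 was called positive without the 3 shallow libraries. Of 66 autophagy and lysosome genes 4.55% were called. Scarb2 was positive, at 0.34 (0.0031 to 0.68), and Atg3 and Atg2a negative, at -0.63 (-1.12 to -0.15) and -0.49 (-0.89 to -0.083). Without the 3 shallow libraries 0 were called positive and 3 negative, so Scarb2 lost its call. Of 46 endosome and retromer genes 0 were called, and 36 of their intervals lay within 1.5-fold.

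Of 57 clustered protocadherin genes, which give neurons their surface identity, 7 were called and all were positive (12.3%, beside 2.06% of all genes), with a median of 0.098. By DESeq2 4 of the 57 were called, and without the 3 shallow libraries 7. The 7 genes called by edgeR were Pcdhgb4, Pcdha1, Pcdhb2, Pcdhb22, Pcdhga2, Pcdhb13 and Pcdhgc4. Of these, Pcdha1 was near the floor, at 0 in most libraries and at no more than 4.21 CPM in any. The alpha and gamma genes share their last exons, so reads are divided among them by estimation and the members do not count as separate observations. The beta genes overlap neighbours as well, and Pcdhb22 shares part of its locus with Pcdhb21 on the same strand. Pcdhb22 measured 12.7, 16.2 and 18.8 CPM in 2N ChN, 8.52, 16.4 and 25.2 in Ts ChN, 9.58, 12.3 and 15.4 in 2N ChP and 11.4, 21.1 and 24.7 in Ts ChP libraries. Its interaction was 0.72 (0.037 to 1.41), unadjusted p = 0.0375, and it was called in 23 of 28 fits that leave out 1 library, with values from 0.58 to 0.90. Pcdhb2 had 1.03 (0.17 to 1.88), or 0.87, unadjusted p = 0.0506, without 2N ChN replicate 2, and Pcdhgb4 had 1.13 (0.24 to 2.02). Pcdhga2, Pcdhb13 and Pcdhgc4 were called in 15, 13 and 15 of the 28 fits. With the first digits of the mouse number as a covariate, Pcdhb22 had 0.68, unadjusted p = 0.0636, and Pcdhb2 0.81, unadjusted p = 0.0764. Of 33 imprinted genes Dlx5 was called positive from a mean of 0.607 CPM, and Rian and Meg3 were called negative (9.09%, beside 3.97% of all genes). In that list 1 was called in each direction without the 3 shallow libraries. Rian and Meg3 are long noncoding RNAs expressed from the maternal copy of a single imprinted domain on chromosome 12. Meg3 (chr12:109506877-109538165, plus strand) measured 688, 763 and 962 CPM in 2N ChN, 747, 1125 and 1622 in Ts ChN, 507, 869.7 and 1159.7 in 2N ChP and 515, 781 and 1045 in Ts ChP libraries. Ts ChN libraries reached the highest levels, with overlap, and the interaction of Meg3 was -0.62 (SE 0.29, 95% interval -1.21 to -0.022), unadjusted p = 0.0428. Rian (chr12:109570242-109628150, plus strand) measured 222, 268 and 389 CPM in 2N ChN, 234, 372 and 479.7 in Ts ChN, 203, 291 and 308 in 2N ChP and 198, 243 and 287 in Ts ChP libraries, with an interaction of -0.52 (SE 0.21, 95% interval -0.95 to -0.095), unadjusted p = 0.0187. Rian was called in 28 of 28 fits that leave out 1 library, with values from -0.63 to -0.44. Meg3 was called in 12 of 28 fits that leave out 1 library, with values from -0.71 to -0.49, and had -0.50, unadjusted p = 0.102, without the 3 shallow libraries. Mirg and Rtl1 of the same domain had -0.46 (-1.35 to 0.44) and -0.93 (-2.93 to 1.07), also below 0 and not called, with wide intervals. Rtl1 overlaps Rian on the opposite strand, so the counts of each may include reads of the other. Of 35 collagen and basement membrane genes only Col23a1 was called (2.86%). It was at 0 in all 7 2N ChP libraries and had a mean of 0.632 CPM.

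**Figure D5:**
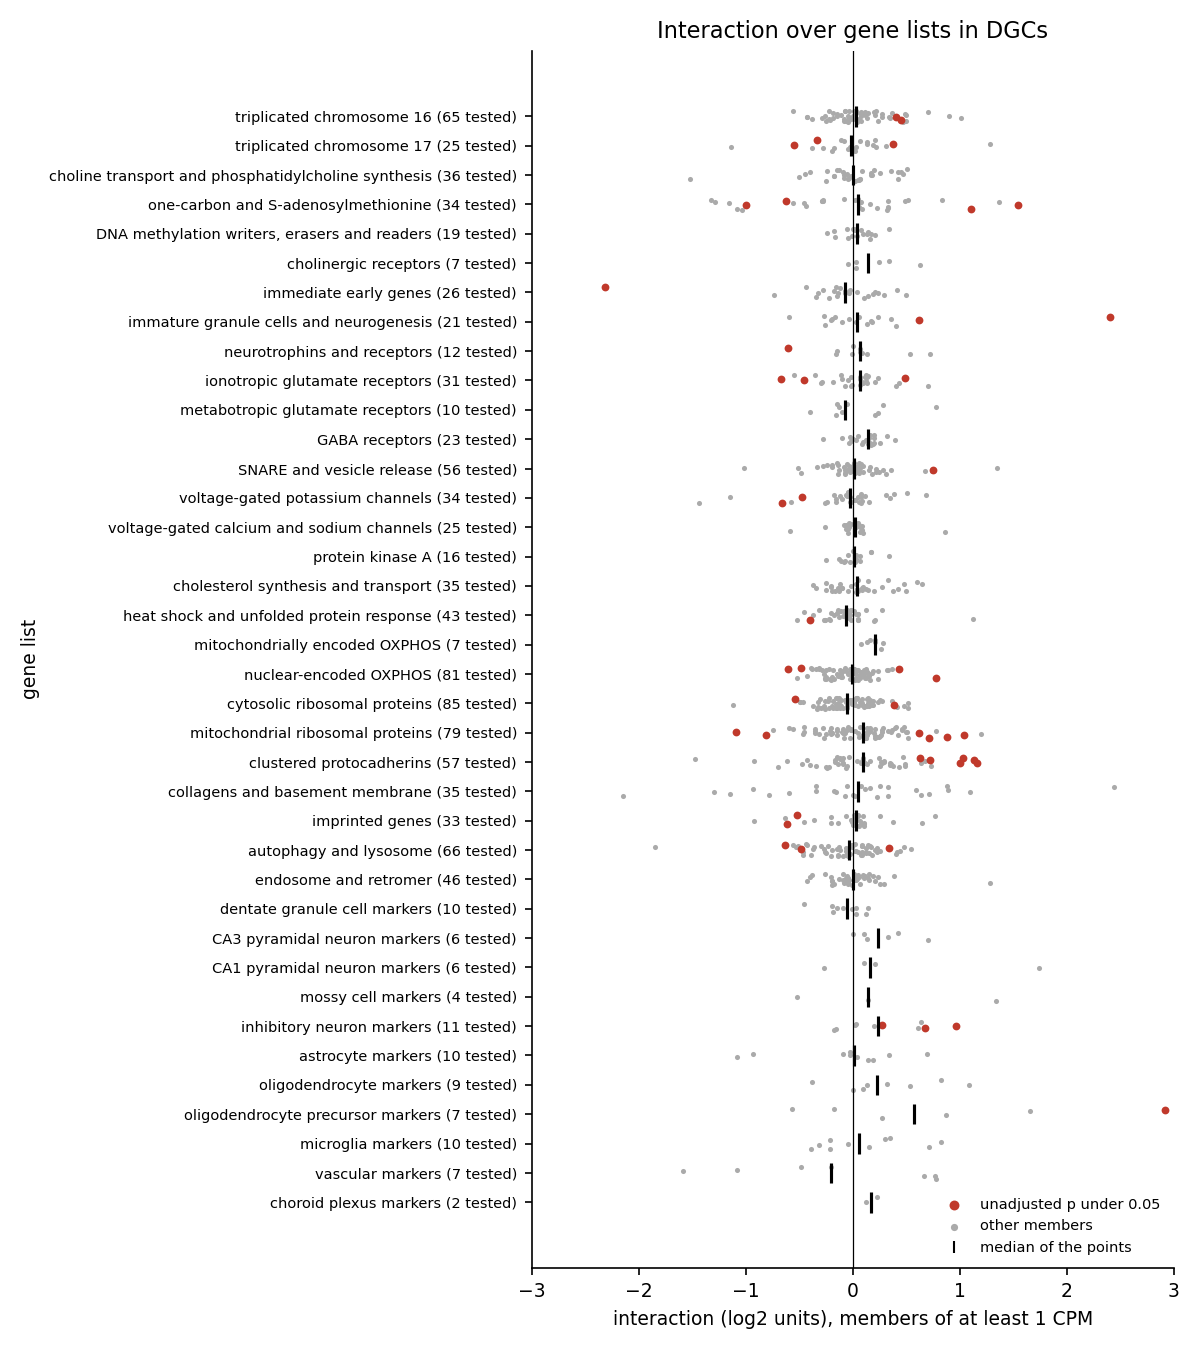
Interaction (log2 units, x axis) of the members of each gene list (rows, with the number tested) that had at least 1 CPM, 1 point per gene, in red where the unadjusted p was under 0.05, with the median of the plotted points as a bar. The bars of lists with over 25 members lie within 0.1 of 0, and the red points of the protocadherin list and the 3 of the inhibitory neuron list all lie to the right of 0. Pcdha1, a called protocadherin with a mean under 1 CPM, is not shown.

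Markers of other cell types in the captured tissue were compared in the same way. In bulk samples fewer cells of a type and less RNA per cell cannot be told apart. Of 11 measured inhibitory neuron markers, Gad1 and Gad2, which make GABA, and Erbb4, the neuregulin receptor, were called positive (27.3%, beside 2.06% of all genes), and the list median was 0.20. Of the 11 markers 2 were called and the median was 0.29 without the 3 shallow libraries. The summed level of the 11 ran from 362 to 477 CPM in 2N ChN, 367 to 525 in Ts ChN, 318 to 443 in 2N ChP and 409 to 571 in Ts ChP libraries. Ts ChP libraries tended to be the highest, and the groups overlapped. Gad1, which DGCs also express, measured 180.0, 194 and 205 CPM in 2N ChN, 152, 187 and 203 in Ts ChN, 143, 176 and 211 in 2N ChP and 172, 209 and 238 in Ts ChP libraries, with an interaction of 0.27 (SE 0.12, 95% interval 0.027 to 0.51), unadjusted p = 0.0302. Its value was 0.22, unadjusted p = 0.0762, without 2N ChP replicate 4 and 0.23, unadjusted p = 0.0643, without Ts ChN replicate 1. Gad2 measured 23.9, 33.3 and 73.9 CPM in 2N ChN, 26.3, 33.4 and 82.7 in Ts ChN, 12.5, 29.4 and 54.3 in 2N ChP and 49.9, 73.2 and 87.3 in Ts ChP libraries. On ChP 6 of the 9 Ts libraries stood above the highest 2N library, whereas on ChN the genotypes covered much the same range. The interaction of Gad2 was 0.97 (SE 0.44, 95% interval 0.070 to 1.87), unadjusted p = 0.0348, it was called in 20 of 28 fits that leave out 1 library, with values from 0.77 to 1.26, and it was 0.77, unadjusted p = 0.105, without the 3 shallow libraries. Erbb4 had 0.68 (0.096 to 1.26), with 0.58, unadjusted p = 0.0550, without 2N ChP replicate 1 and 0.57, unadjusted p = 0.0599, without 2N ChN replicate 6. The vesicular GABA transporter Slc32a1 had 0.64 (-0.15 to 1.42), and the subtype markers Pvalb, Npy, Lhx6 and Vip were low, with 0.61 (-1.21 to 2.43), -0.15 (-1.35 to 1.05), 0.031 (-1.20 to 1.26) and -0.77 (-3.93 to 2.39). The part of inhibitory cells or processes in the other results was not tested.

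Astrocyte markers summed to 1185 to 1531 CPM in 2N ChN, 1254 to 1477 in Ts ChN, 1134 to 1515 in 2N ChP and 1194 to 1639.6 in Ts ChP libraries, with 0 of 10 called and a median of 0.0079. Of the oligodendrocyte list 0 of 9 were called (median 0.32), of the microglia list 0 of 10 (median 0.056) and of the vascular list 0 of 7 (median -0.21). Without the 3 shallow libraries the medians of these 3 lists were 0.12, 0.19 and 0.099, and that of the astrocyte list was -0.057, with 0 called in each. Of 7 oligodendrocyte precursor markers C1ql1 was called positive (14.3%, beside 2.06% of all genes called positive), at a mean of 1.14 CPM. It was not called without 2N ChN replicate 4 (2.01, unadjusted p = 0.149), without Ts ChP replicate 3 (2.59, unadjusted p = 0.0512) or without the 3 shallow libraries (2.68, unadjusted p = 0.0600). The list as a whole had a median of 0.87, no member reached 10 CPM, and no interval lay within 2-fold, so a difference of that size was not detectable there. Markers of neighbouring neurons were low beside the DGC markers, with CA3 PN markers at 67.8 to 176 CPM and CA1 PN markers at 30.8 to 76.8 CPM over all 28 libraries, and 0 of 6 were called in each list. Of 4 mossy cell markers and 2 choroid plexus markers 0 were called. Without the 3 shallow libraries the mossy cell list had 1 call, Calcrl, a peptide receptor, at 1.64, unadjusted p = 0.0351.

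The interaction in DGCs was then set against that in the CA3 PNs and CA1 PNs of the same mice, in 1 model of 12 groups and 80 libraries over 20382 genes. For 0 genes did the DGC interaction differ from that in CA3 PNs after adjustment (smallest adjusted p = 0.659, edgeR), and 959 genes were called at the unadjusted threshold (4.71%). The same held for CA1 PNs, with 0 genes after adjustment (smallest adjusted p = 0.385, edgeR) and 976 called (4.79%). In that model the interaction itself was called for 920 genes in DGCs (4.51%), against 1045 for CA3 PNs (5.13%) and 1102 for CA1 PNs (5.41%), with 0 after adjustment in each. Each share lies near the 5% of this threshold. The DGC count comes from another model and gene set than the 656 genes called above. A difference between populations carries the error of 8 groups, with a median SE of 0.56 for DGCs against CA3 PNs. Of the 65 chromosome 16 and the 25 chromosome 17 genes 0 were called for the difference from CA3 PNs. For the difference from CA1 PNs, 1 chromosome 16 gene was called positive and 1 negative, and 2 chromosome 17 genes were called negative.

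Among the genes named here, Cables1 had the smallest p for DGCs against CA3 PNs. Its interaction in this model was -0.95 (SE 0.40) in DGCs and 2.01 (SE 0.60) in CA3 PNs, a difference of -2.96 (SE 0.73), adjusted p = 0.659 (edgeR). Rab28 had 0.60 in DGCs and -0.54 in CA3 PNs, and Dclre1c 0.96 in DGCs, against -0.77 for CA3 PNs and -0.73 for CA1 PNs. Cables1, Rab28 and Dclre1c were, like Ly6e and Tmem106b below, among the genes chosen for their DGC values, which favours a difference from the other populations. Of the 2 genes of smallest p in DGCs at or above 10 CPM, Ly6e had -0.78 in DGCs, against -0.53 for CA3 PNs and 0.28 for CA1 PNs, and Tmem106b had 0.44, 0.035 and 0.068. Gad1 had 0.28, 0.12 and -0.0060. The median interaction of the 65 chromosome 16 genes was 0.052 in DGCs, against -0.052 for CA3 PNs and 0.11 for CA1 PNs.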

How the data were processed

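The authors made SMARTer Stranded Total RNA-Seq Pico v3 libraries from LCM DGCs and deposited expected counts per gene, one matrix for each population, which are not whole numbers and were rounded here. The submitters' processing notes name FastQC 0.11.9, Trimmomatic 0.39, STAR, Picard 2.26.2 and RSEM, and both GRCm39 and mm10, and the strand setting of the counting is not given in the sources used here. The files of single libraries repeat these estimates and were not used. Gene names and positions are those of GENCODE M39 on GRCm39, with 56310 of 57010 identifiers matched. All 28 DGC libraries, 1 per mouse, entered a model of 4 groups in edgeR 4.0.16 (R 4.3.3) with TMM scaling, a filter of over 0.1 CPM in at least 10 libraries and a robust quasi-likelihood fit. The authors' covariates of RNA and sequencing quality were not used. The labels do not say more of how samples were separated than the mouse number, and p-values measure the spread between mice. The diet was given to dams, and dam and litter are not among the labels used here. Mice of the same litter may therefore not be independent for the diet. SEs are Wald SEs scaled by the quasi-likelihood spread, and intervals in parentheses after an interaction are 95% intervals, which can hold 0 where the p of the quasi-likelihood test is just under 0.05. A gene was called at an unadjusted p under 0.05, the threshold of the study, and Benjamini-Hochberg adjustment ran over all genes tested. CPM are TMM-scaled. Library properties were compared by an exact permutation test (two-sided, diets permuted within genotypes). The null of that test is no effect of diet in either genotype, so its p is not exact for the interaction alone. Totals of 358355 to 1680698 counts limit the precision of genes under 10 CPM.

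Genes named were those with an adjusted p under 0.05 (none), the 12 of smallest p in each direction at 10 CPM or more with a symbol other than a clone or Gm name, the 2 members of smallest p in each list, and 14 fixed genes (App, Dyrk1a, Sod1, Ttc3, Son, Pcp4, Chka, Pcyt1a, Slc44a1, Pemt, Prox1, Calb1, Bdnf and Ntrk2), and others are marked in the text. Some genes that this rule names are not reported here. The comparison, the lists and the genes were chosen with earlier results of these data known. Alternatives were library totals, RLE factors, other filters, a fit without robust estimation, limma-voom (3.58.1), DESeq2 (1.42.0), 1 surrogate variable (sva 3.50.0) and leaving out each library. The omission of libraries under 600000 counts, thinning to the smallest total and a covariate of the first digits of the mouse number were added after the data were seen. DGC and CA PN libraries of a mouse share that mouse. Their deviations from group means correlated with a median r of 0.096 for CA3 (0.031 to 0.21, 25 mice, 9112 genes) and 0.082 for CA1 (-0.0081 to 0.17, 27 mice). One CA3 library, labelled Ts where the other libraries of its mouse are labelled 2N, was left out of the main model of the 3 populations. Scripts were tested on simulated data.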

Additional observations from a re-analysis of the deposited data

Results flagged for a closer look

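In 24 of 464 groups of libraries compared over the named genes (5.17%), the highest or lowest library stood apart from the rest of its group, with a gap to its nearest neighbour, as a share of the range of the group, above Dixon's 95% critical value. Chance marks about 1 in 20 groups, so this number is near the chance level, and no explanation was tested. The share is given in parentheses after whether the library was the lowest or the highest. Among the 24 genes of smallest p, these were Il1rap at 250.3 CPM in 2N ChN replicate 6 (lowest, 0.844), Il1rap at 293 CPM in 2N ChP replicate 2 (highest, 0.583), Gsg1l at 67.8 CPM in Ts ChP replicate 3 (lowest, 0.625), Ddr1 at 41.4 CPM in Ts ChN replicate 2 (highest, 0.693), Ddr1 at 16.1 CPM in 2N ChP replicate 5 (lowest, 0.571) and Vcf1 at 21.5 CPM in Ts ChP replicate 3 (lowest, 0.515). The others of that set were Adam1a at 10.4 CPM in Ts ChP replicate 8 (lowest, 0.494), Ly6e at 68.1 CPM in Ts ChP replicate 4 (highest, 0.507), Kcng2 at 33.3 CPM in 2N ChP replicate 1 (lowest, 0.669), Kcng2 at 25.5 CPM in Ts ChP replicate 6 (lowest, 0.615), Gfra2 at 21.9 CPM in 2N ChN replicate 5 (lowest, 0.763), Gss at 31.2 CPM in Ts ChN replicate 5 (highest, 0.649) and Gss at 54.7 CPM in 2N ChP replicate 3 (highest, 0.586). For triplicated genes and members of the lists called or near the threshold, they were Usp16 at 60.0 CPM in Ts ChP replicate 1 (lowest, 0.592), Kcnj6 at 248 CPM in Ts ChN replicate 6 (lowest, 0.639), Xbp1 at 93.4 CPM in 2N ChP replicate 4 (highest, 0.590), Pcdhb13 at 2.09 CPM in 2N ChN replicate 6 (lowest, 0.666), Pcdhga2 at 4.20 CPM in Ts ChP replicate 2 (lowest, 0.566) and Srm at 9.66 CPM in Ts ChP replicate 5 (lowest, 0.616). For cell type markers they were Bok at 0 CPM in 2N ChN replicate 1 (lowest, 0.711), Aldoc at 104 CPM in Ts ChP replicate 4 (highest, 0.509), Csf1r at 4.21 CPM in 2N ChN replicate 1 (lowest, 0.643), Pdgfrb at 5.51 CPM in 2N ChN replicate 2 (highest, 0.658) and Kl at 36.5 CPM in 2N ChN replicate 1 (highest, 0.751). The DGC library 2N ChN replicate 1, with a total of 696340 counts, stood apart for 3 genes, Bok, Csf1r and Kl. The CA3 library of the same mouse is labelled Ts. In the DGC library the mean log2 CPM of the chromosome 16 genes was 5.26, against 5.597 in the lowest Ts library.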

How the results depend on the processing

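The number of genes called for the interaction stayed between 482 and 711 under the alternatives other than the filters and the omission of single libraries. A minimum count of 10 left 9914 genes, of which 361 were called (168 positive and 193 negative), and without a filter 1293 were called (678 positive and 615 negative) among 25383. The count after adjustment was 0 except that 1 gene, Gm20458, passed without a filter, without robust estimation, by DESeq2, without the 3 libraries under 600000 counts, after thinning and without Ts ChN replicate 4. Leaving out each library in turn gave 609 to 726 called genes and 0 to 1 after adjustment. Which genes were called moved more than their number. The share of the 656 called genes that were called again was 99.1% with library totals, 71.0% by DESeq2, 63.9% without the 3 shallow libraries, 65.9% with the mouse number covariate and 23.6% after thinning to 358355 counts, and the cause of the differences was not tested beyond the reads and libraries removed. Of 4647 values of named genes under these settings, 4257 kept their side of the threshold, 250 were no longer called and 140 became called. Of called values 0 turned in sign, while named genes that were not called changed sign in 35 values, over 13 genes. List medians moved by up to 0.0079 with library totals, 0.061 by DESeq2 and 0.37 (oligodendrocyte precursor markers) without the shallow libraries.

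With the mouse as a replicate block, 658 genes were called for DGCs against CA3 PNs (959 without it) and 750 against CA1 PNs (976 without it). Both had 0 after adjustment, and the pairing moved neither count by more than 1.5 times. The blocked fit was less precise, with a median SE of 0.88 for both differences, against 0.56 for CA3 PNs and 0.57 for CA1 PNs without it. The CA3 library of the mouse with conflicting labels, kept under its own label, gave 956 called genes, and leaving out 2 CA1 libraries that stood apart from their labels gave 1030, with 0 after adjustment in both. Without those 2 CA1 libraries the smallest adjusted p for DGCs against CA1 PNs was 0.120 (edgeR), against 0.385 with them. They are part of the other CA1 values given. Within DGCs each mouse gave 1 library, so no pairing by mouse exists there. Depth limits the comparison most for genes under 10 CPM.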
